A study of Mus musculus with 2 samples.

Results

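ATF4 targets and tRNA synthetases were followed as a set of 32 genes, of 55401 counted, in hearts of C57BL/6 mice. The set was listed by gene symbol, with earlier results of these data known, and its identifiers were those that carry the 32 symbols in GENCODE M21. It holds 6 transcription factors and stress regulators, 8 enzymes of serine, asparagine and folate metabolism, 4 amino acid transporters and 14 cytosolic aminoacyl-tRNA synthetases. The first library came from hearts after transverse aortic constriction (TAC) with dioscin for 4 weeks. The other came from hearts after TAC alone. In TAC the aortic arch is tied down to a narrow opening, against which the left ventricle must pump, and dioscin is a plant steroidal saponin. Both groups carried the surgery, so the comparison asks what differs with dioscin in the pressure-loaded heart. The labels do not say how many hearts made up a library, nor the age or sex of the mice, and the treatment text is worded alike for both samples, so the groups rest on the treatment label of each sample.

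ATF4 is a transcription factor of the integrated stress response. When a stress kinase phosphorylates the initiation factor eIF2, most translation slows while ATF4 protein is made more efficiently, so that its mRNA level is not a measure of its activity. ATF4, often paired with a C/EBP protein, then raises genes that make, import and load amino acids. Aminoacyl-tRNA synthetases attach each amino acid to its tRNA. In heart muscle the same program is known as a response to mitochondrial stress.

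The levels below are counts scaled with the TMM factors of edgeR to CPM, a unit relative to library size in which 3 counts came to 0.175 CPM in the dioscin library and 0.174 CPM in the TAC library. Each ratio is the dioscin library over the TAC library, with a pseudocount of 0.5 on both counts and an exact 95% Clopper-Pearson interval that covers counting error only. With 1 library a group there was no test, and the spread between mice is unknown. A gene is called higher or lower where it reached 1 CPM in a library and differed 2-fold or more, with an interval that leaves out 1. By this rule 19.3% of the 15697 genes at or above 1 CPM were called, 10.5% as higher and 8.77% as lower.

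Regulatory sequence is shown first, because ATF4 is known to act on many of its targets through a C/EBP-ATF response element near the gene start. The RefSeq promoter table (GRCm38.p6) had a window for 23 of the 32 genes, from 250 bases before to 50 bases after the annotated start. Aldh1l2, Slc7a5, Cars, Hars, Lars, Mars, Nars, Vars and Wars had none. This element was searched as TGATGNAA on both strands, and 9 of the 23 genes (39.1%) held it, against 4.51% of the 27025 genes with a window. The set was listed as ATF4 targets, so a share above that of all genes can follow from the choice of genes. The palindromic cyclic AMP response element TGACGTCA, a site of related factors, was in none of the 23 and in 2.03% of all genes. No window held both motifs in these 23 genes, and a match describes sequence, not binding. Each match of the response element is printed 5′ to 3′ on the strand that reads TGATGNAA, with the match in capitals.
Aars (chr8:111033722-111033745, minus strand): ggctcggcTGATGCAAtgctcaag
Aars (chr8:111033843-111033866, minus strand): gagcgctcTGATGAAAagtgaccc
Asns (chr6:7693217-7693240, minus strand): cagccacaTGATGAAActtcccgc
Chac1 (chr2:119351041-119351064, minus strand): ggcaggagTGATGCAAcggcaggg
Gars (chr6:55037963-55037986, minus strand): ccggtgcaTGATGAAAtagcgcag
Iars (chr13:49682129-49682152, minus strand): tctggaggTGATGCAAtactgaca
Nupr1 (chr7:126625565-126625588, plus strand): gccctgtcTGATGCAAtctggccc
Tars (chr15:11399658-11399681, plus strand): taaccagcTGATGCAAcgggactc
Trib3 (chr2:152344031-152344054, plus strand): cgcccggcTGATGTAAacctgagc
Yars (chr4:129189898-129189921, plus strand): agctcagcTGATGCAAcccgacgg

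The matches lay at different distances from the start. The first base of the match was base 58 of the window in Chac1 and base 141 in Nupr1, both well before the start. In Tars, Asns and Gars it was base 236, 228 and 221. In Yars, Iars and Trib3 it was base 254, 258 and 265, past the annotated start. Aars held a match at base 139 and another at base 260. In Aars, Iars, Nupr1, Chac1, Tars and Yars at least 1 match read TGATGCAA.

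The whole window is given for Nupr1, which was called higher in the dioscin library, and for Asns, whose promoter element is the classical amino acid response site. Nupr1 lies at chr7:126625421-126625720 on the minus strand and Asns at chr6:7693160-7693459 on the minus strand, with the match in capitals.
Nupr1: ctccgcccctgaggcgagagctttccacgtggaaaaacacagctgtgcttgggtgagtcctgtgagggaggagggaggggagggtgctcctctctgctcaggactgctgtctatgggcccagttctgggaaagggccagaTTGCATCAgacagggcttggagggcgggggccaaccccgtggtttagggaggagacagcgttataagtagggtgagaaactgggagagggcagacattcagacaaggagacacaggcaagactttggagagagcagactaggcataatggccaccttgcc
Asns: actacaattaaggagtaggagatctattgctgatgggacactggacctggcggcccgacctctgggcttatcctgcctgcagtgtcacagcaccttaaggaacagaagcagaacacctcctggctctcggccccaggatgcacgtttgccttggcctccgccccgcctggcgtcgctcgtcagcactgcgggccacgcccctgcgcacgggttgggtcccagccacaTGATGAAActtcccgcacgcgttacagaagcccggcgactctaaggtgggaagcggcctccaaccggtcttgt

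The 9 genes with a match had a median log2 ratio of 0.37, and the 14 genes with a window and no match had 0.35. The 9 genes with no window had 0.06. Each of these 3 groups held 1 gene called higher. The ratios of genes with a window, with and without the letters, ran over much the same range, from -0.41 to 1.06 and from -0.85 to 1.08 on the log2 scale.

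The dioscin library held 17612259 counts in genes and the TAC library 16782741. The share of counts in genes of the mitochondrial genome was 25.5% with dioscin and 31.6% in TAC. Ventricular muscle markers were abundant in both, with 49911 and 45919 summed CPM in the dioscin and TAC libraries. Of these 8 markers, 1 was called, the ventricular identity factor Irx4, lower at 12.3 CPM with dioscin and 51.9 CPM in TAC. The interval lay above 1 for 5 of the 8 and below 1 for Irx4, Myl2 and Myh7. The ratios of Myl2 and Myh7 were 0.785 (0.779 to 0.791) and 0.757 (0.745 to 0.770). Atrial muscle markers were higher in the dioscin library in 6 of 6 measured of 7 listed, with a summed 17549 CPM against 594 CPM in the TAC library, where Mybphl and Bmp10 were at 0 counts. Mesothelial markers were higher in 7 of 8, with 153 CPM in the dioscin library and 18.5 CPM in the TAC library, where Krt18 and Krt8 were at 0. All 5 measured of 7 adipocyte markers were higher, with 31.1 CPM in the dioscin library and 0.811 CPM in the TAC library, where Cidec, Plin1 and Retn were at 0. Lep was at 0 in both libraries. Of the 8 fibroblast markers, 4 were higher, with 1564 CPM in the dioscin library and 504 CPM in the TAC library. B cell markers were lower in 6 of 6 measured of 7 listed, with 8.35 and 33.1 CPM in the dioscin and TAC libraries. Of the 8 macrophage markers, Lyz2 and Lyve1 were higher and Ccr2 lower, with a summed 489 CPM with dioscin and 253 CPM in TAC. Of the 7 endothelial markers, Pecam1 and Vwf were higher and Egfl7 lower, with a summed 1595 CPM with dioscin and 1609 CPM in TAC. Markers of several tissues and cell types thus differed between the libraries, and their part in the results that follow was not tested. The marker lists, too, were chosen with earlier results of these data known. In whole tissue, fewer cells of a type and less RNA per cell cannot be told apart.

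All 32 genes reached 1 CPM in a library. They were counted between 14 and 4934 times in a library, and 6 were under 5 CPM in both. Slc3a2, Nupr1 and Aldh1l2 were called higher and no gene was called lower. Scaled by total counts in place of TMM, only Slc3a2 was called, with Nupr1 and Aldh1l2 just under 2-fold. The 3 of 32 are 9.38%, close to the 10.5% of all genes called higher. No member reached the 2-fold limit downwards, against 8.77% of all genes. The median log2 ratio of the set was 0.33, with 21 ratios above 1 and 11 below, and the median of all genes at or above 1 CPM was 0.01. The interval lay above 1 for 14 genes (43.8%, against 35.1% of all genes) and below 1 for 6 (18.8%, against 32.1%). Ratios ran from 0.553 for Psph to 2.12 for Slc3a2.

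**Figure D1:**
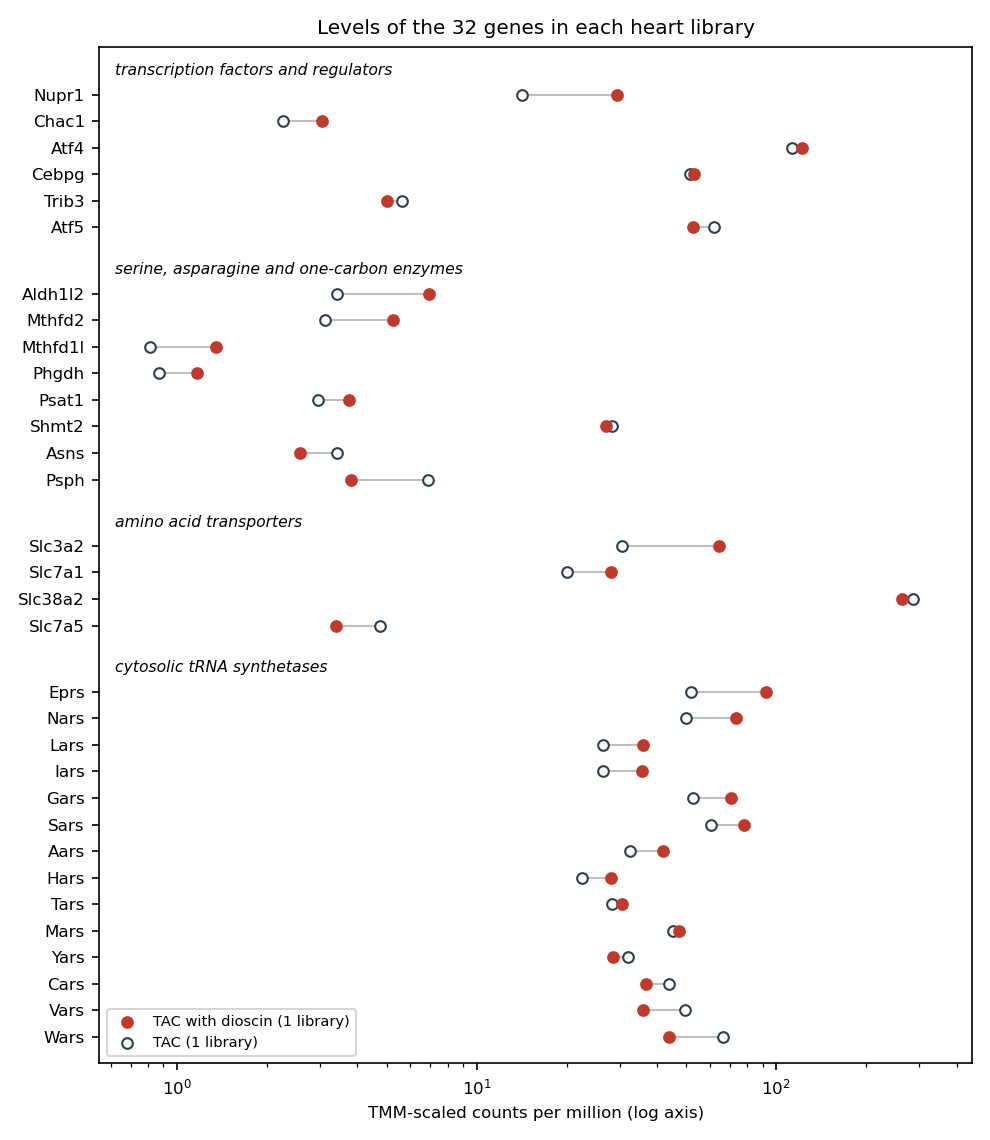
TMM-scaled CPM (log axis) of the 32 genes, by role, with filled points for the library of TAC with dioscin and open points for the TAC library. The largest gaps are those of Slc3a2, Nupr1 and Aldh1l2, higher with dioscin, while Psph and Wars are lower with dioscin without reaching 2-fold.

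Among the regulators, Atf4 mRNA differed little between the libraries and Nupr1 was called higher. Atf4 (ENSMUSG00000042406.8; chromosome 15, 80255184 to 80257541 on GRCm38) had 122 CPM in the dioscin library and 112 CPM in the TAC library, a ratio of 1.08 (1.02 to 1.15). Atf5, a relative whose translation is also raised by stress and which serves the mitochondrial stress response, had 52.8 CPM with dioscin and 61.8 CPM in TAC, a ratio of 0.854 (0.781 to 0.934). Cebpg, the C/EBP partner that binds DNA with ATF4, had 53.3 CPM in the dioscin library and 51.7 CPM in TAC. Its ratio of 1.03 (0.940 to 1.13) turned slightly below 1 when libraries were scaled by total counts.

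Nupr1, a small stress-induced chromatin protein (ENSMUSG00000030717.9; chromosome 7, 126623249 to 126630861), was counted 505 times in the dioscin library and 244 times in the TAC library, or 29.5 and 14.1 CPM. Its ratio was 2.09 (1.79 to 2.44). Trib3 and Chac1 were scarce. Trib3, a pseudokinase that feeds back on the stress response, had 86 counts in the dioscin library and 97 in the TAC library, a ratio of 0.895 (0.661 to 1.21). Chac1, which degrades glutathione, had 52 counts with dioscin and 39 in TAC, a ratio of 1.34 (0.871 to 2.09). Both intervals include 1, so no difference was detectable at this depth. The median log2 ratio of the 6 regulators was 0.08, and -0.0020 with scaling by total counts.

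Of the 8 metabolic enzymes, Aldh1l2 was called higher, 5 had a ratio above 1 and 3 below. Aldh1l2, the mitochondrial formyltetrahydrofolate dehydrogenase that yields NADPH (ENSMUSG00000020256.14; chromosome 10, 83487450 to 83534140), had 119 counts in the dioscin library and 59 in the TAC library. Its levels were 6.95 and 3.42 CPM in the dioscin and TAC libraries and its ratio 2.03 (1.48 to 2.83), just past the 2-fold limit. An opposite-strand gene, D10Wsu102e, covers 14.1% of the exonic length of Aldh1l2 and had a ratio of 1.42 (1.18 to 1.71), and the kit does not mark strand. Mthfd2, the mitochondrial methylenetetrahydrofolate dehydrogenase, had 90 counts with dioscin and 54 in TAC, a ratio of 1.68 (1.19 to 2.40), short of the 2-fold limit. Mthfd1l, which releases formate from the mitochondrion, had 23 counts in the dioscin library and 14 in TAC, a ratio of 1.64 (0.817 to 3.48). Shmt2, which takes the carbon unit from serine, was the most abundant of the 8 enzymes at 27.0 CPM with dioscin and 28.2 CPM in TAC, a ratio of 0.957 (0.841 to 1.09).

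Phgdh, Psat1 and Psph catalyse the consecutive steps from a glycolytic intermediate to serine, and all were low in these hearts. Phgdh had 20 counts in the dioscin library and 15 in the TAC library, a ratio of 1.33 (0.655 to 2.82). Its transcript matches 8 other annotated genes at 95% identity or more, so reads could be split or lost between them, and the copies together held 2 counts with dioscin and 0 in TAC. Psat1 had 64 counts in the dioscin library and 51 in TAC, a ratio of 1.26 (0.863 to 1.87). Psph (chromosome 5, 129765558 to 129787449) had 65 counts in the dioscin library and 119 in the TAC library, a ratio of 0.553 (0.401 to 0.752). The opposite-strand gene Cct6a covers 10.4% of its exonic length and had a ratio of 1.22 (1.11 to 1.34). Asns, asparagine synthetase, had 44 counts with dioscin and 59 in TAC, a ratio of 0.755 (0.497 to 1.13). The interval of Psph is the only one of these 4 that excludes 1. The median log2 ratio of the 8 enzymes was 0.38, and 1 was called higher.

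The other folate, glycine and methionine enzymes, outside the set, had 2 of 17 called higher and 1 lower, with a median log2 ratio of 0.55. Of all genes, 10.5% were called higher and 8.77% lower. Mat2a, which makes S-adenosylmethionine, was the most abundant at 220.0 CPM with dioscin and 129 CPM in TAC, a ratio of 1.71 (1.62 to 1.80). The cytosolic counterparts of the mitochondrial enzymes, named after their values were seen, had ratios close to each other. Shmt1 had 1.51 (1.16 to 1.97), Mthfd1 1.47 (1.22 to 1.77) and Aldh1l1 1.49 (1.14 to 1.96). Ahcy, which clears S-adenosylhomocysteine, was called higher with 315 counts in the dioscin library and 118 in the TAC library, a ratio of 2.69 (2.17 to 3.36). Gldc, the decarboxylase of the glycine cleavage system, had 46 counts with dioscin and 2 in TAC, a ratio of 18.8 (6.07 to 197). Its partners in that system were also named after their values were seen. They had ratios of 1.80 (1.54 to 2.11) for Gcsh, 1.70 (1.60 to 1.81) for Dld and 0.688 (0.584 to 0.809) for Amt. Tyms, the thymidylate synthase of dividing cells, was called lower with 32 counts in the dioscin library and 91 in TAC, a ratio of 0.358 (0.229 to 0.536). Cell cycle markers were lower in 4 of 6 measured of 7 listed, at a summed 16.2 CPM with dioscin and 43.2 CPM in TAC, and their part in this was not tested.

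Of the 4 transporters, Slc3a2 was called higher and the others lay within 2-fold. Slc3a2 encodes the heavy chain CD98, which carries several amino acid exchangers to the cell surface (ENSMUSG00000010095.13; chromosome 19, 8706882 to 8723369). It was counted 1105 times in the dioscin library and 526 times in the TAC library, or 64.6 and 30.5 CPM, a ratio of 2.12 (1.91 to 2.36). Slc7a5, the leucine exchanger LAT1 that pairs with CD98, had 58 counts with dioscin and 82 in TAC, a ratio of 0.715 (0.501 to 1.01). Per kilobase of exonic length, Slc3a2 stood at 20.02 times Slc7a5 in the dioscin library and at 6.74 times in the TAC library. Of the gene pairs compared in this way, this one differed most between the libraries, and no interval was computed for it. Slc7a1, the transporter of arginine and lysine, had 28.0 CPM in the dioscin library and 19.98 CPM in TAC, a ratio of 1.40 (1.22 to 1.61). Slc38a2, a sodium-coupled carrier of small neutral amino acids, was the most counted gene of the 32 at 263 CPM with dioscin and 286 CPM in TAC, a ratio of 0.920 (0.883 to 0.958). The median log2 ratio of the 4 transporters was 0.18.

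**Figure D2:**
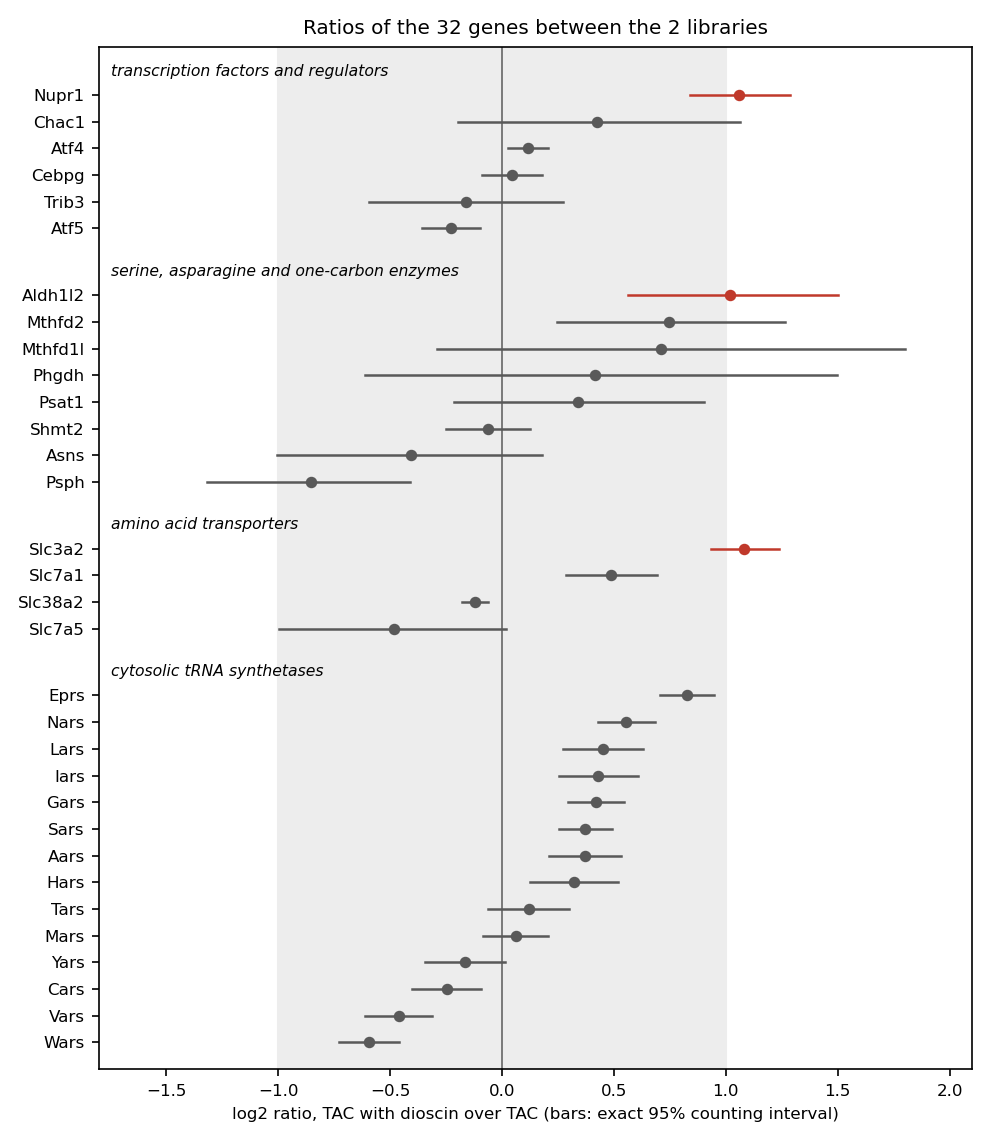
Log2 ratio of TAC with dioscin over TAC for the 32 genes, by role, with bars for the exact 95% counting interval and the grey band for differences under 2-fold. Nupr1, Aldh1l2 and Slc3a2 (red) lie past the band at 1.06, 1.02 and 1.08, and the synthetases run from 0.83 for Eprs to -0.59 for Wars.

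None of the 14 cytosolic synthetases was called, against 19.3% of all genes. Of the 14, 10 had a ratio above 1, as had 7938 of the 15697 genes at or above 1 CPM. The median log2 ratio of the 14 was 0.35, and their summed level was 679 CPM in the dioscin library and 588 CPM in the TAC library. The interval lay above 1 for 8 and below 1 for 3, against 35.1% and 32.1% of all genes. Eprs, which loads both glutamate and proline (chromosome 1, 185363044 to 185428360), had 92.3 CPM with dioscin and 52.1 CPM in TAC, a ratio of 1.77 (1.63 to 1.93) and the nearest to the 2-fold limit. Nars, for asparagine, had 73.4 CPM in the dioscin library and 49.9 CPM in the TAC library, a ratio of 1.47 (1.35 to 1.60).

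A middle group of enzymes lay close together. Lars for leucine, Iars for isoleucine, Gars for glycine, Sars for serine, Aars for alanine and Hars for histidine had ratios of 1.37, 1.35, 1.34, 1.29, 1.29 and 1.25. Gars had 70.5 CPM in the dioscin library and 52.7 CPM in the TAC library. Sars had 78.3 CPM with dioscin and 60.5 CPM in TAC. The intervals of these 6 genes overlapped, so their order is within counting error. Iars shares 49.9% of its transcript with the copy Gm4849 at 95% identity or more, and Gm4849 held 0 counts with dioscin and 1 in TAC. Aars shares 14.3% of its exonic length with Exosc6 on the same strand, which had 0 counts in both libraries.

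Tars for threonine and Mars for methionine had intervals that include 1, at ratios of 1.09 (0.958 to 1.23) and 1.04 (0.944 to 1.15). Scaled by total counts, the ratio of Mars was slightly below 1. Yars for tyrosine had a ratio of 0.892 (0.788 to 1.01). Cars, for cysteine, had 36.8 CPM in the dioscin library and 43.7 CPM in the TAC library, a ratio of 0.842 (0.756 to 0.937). Vars, for valine, had 35.9 CPM with dioscin and 49.5 CPM in TAC, a ratio of 0.726 (0.653 to 0.806). Wars, for tryptophan, which is also an interferon-induced gene, had 43.9 CPM in the dioscin library and 66.2 CPM in the TAC library (chromosome 12, 108860030 to 108894174). Its ratio of 0.662 (0.603 to 0.727) was the lowest of the 14.

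Part of the enzymes sit in a large multi-synthetase complex. Its 4 members in the set, Eprs, Iars, Lars and Mars, had a median log2 ratio of 0.44, and the other 10 had 0.22. All 4 ratios were above 1, but that of Mars had an interval that includes 1 and fell slightly below 1 with total counts. This split was not among the planned comparisons. Counting the 6 cytosolic synthetase genes outside the set as well, 15 of 20 had a ratio above 1, with the same median of 0.35 and none called. Those with the farthest ratios were Kars for lysine at 1.54 (1.42 to 1.66) and Dars for aspartate at 1.44 (1.30 to 1.59). Aimp1, a scaffold protein of the complex, had 66.7 CPM with dioscin and 34.3 CPM in TAC, a ratio of 1.94 (1.76 to 2.15). The other scaffold proteins listed had ratios of 1.18 (1.01 to 1.38) for Aimp2 and 0.963 (0.704 to 1.32) for Eef1e1.

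The mitochondrial synthetases, encoded by separate nuclear genes, had the opposite balance. Of 17, 12 had a ratio below 1, as had 7759 of the 15697 genes at or above 1 CPM. The median log2 ratio of the 17 was -0.32, and none was called, against 19.3% of all genes. Lars2 was the most abundant, with 110 CPM in the dioscin library and 209 CPM in the TAC library, a ratio of 0.529 with an interval below 1. Near-identical copies were searched for the 32 genes only, so not for Lars2 or the other mitochondrial synthetases. The interval lay above 1 for 4 of the 17 and below 1 for 9, against 35.1% and 32.1% of all genes. Those 4 were Fars2 at 1.84 (1.62 to 2.09), Iars2 at 1.52 (1.40 to 1.66), Yars2 at 1.52 (1.21 to 1.91) and Rars2 at 1.29 (1.07 to 1.56). Opposite-strand genes cover 24.2% of the exonic length of Iars2 and 10.7% of that of Fars2. Whether the medians of the cytosolic and mitochondrial lists differ beyond the spread between mice was not tested.

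**Figure D3:**
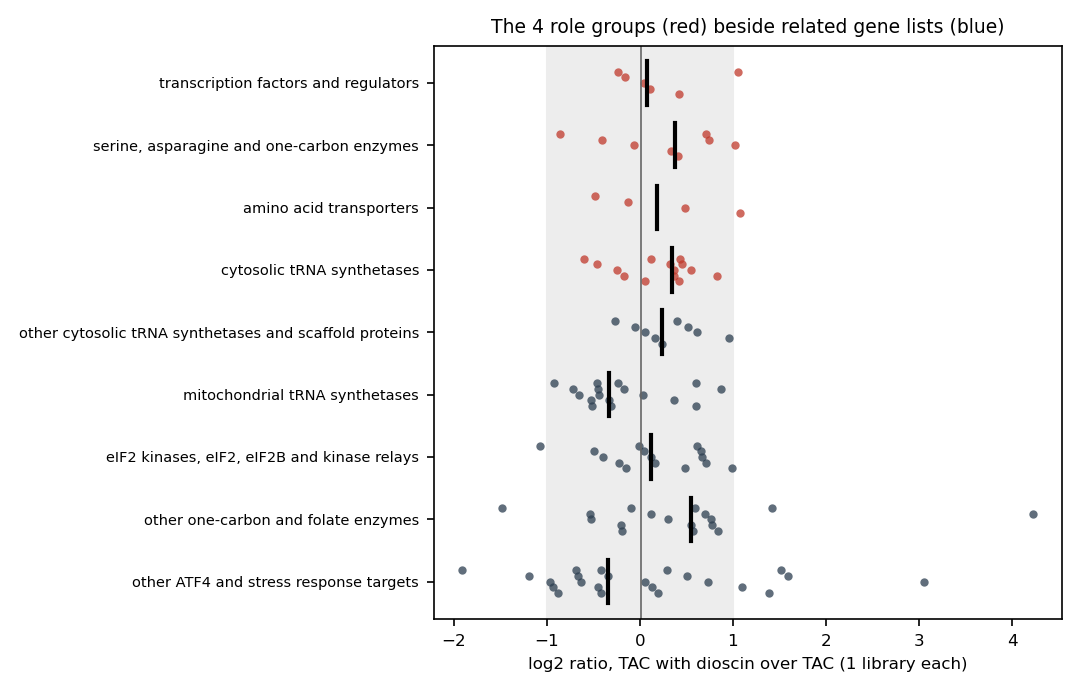
Log2 ratio of TAC with dioscin over TAC for the 4 role groups (red) and related lists (blue), 1 point a gene at or above 1 CPM, with black bars for list medians, a grey band for differences under 2-fold and a thin line at the median of all genes. The cytosolic synthetases centre at 0.35 and the mitochondrial ones at -0.32.

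Upstream of ATF4, 15 genes were listed, which are the eIF2 kinases, eIF2, its exchange factor eIF2B and the relays Gcn1l1, Oma1 and Dele1 that signal to the kinases. Of these, 1 was called, against 19.3% of all genes, and the median log2 ratio of the 15 was 0.12. The called gene was Eif2ak2, the kinase PKR that senses double-stranded RNA, lower at 16.3 CPM with dioscin and 34.3 CPM in TAC, a ratio of 0.475 (0.410 to 0.548). The other kinases, like the subunits after them named once their values were seen, had ratios of 0.994 (0.881 to 1.12) for Eif2ak1, 0.859 (0.703 to 1.05) for Eif2ak3 and 0.711 (0.611 to 0.826) for Eif2ak4, which senses uncharged tRNA. The eIF2 subunit genes Eif2s1, Eif2s2 and Eif2s3x had ratios of 1.63, 1.58 and 1.99. Dele1 carries mitochondrial stress to the kinase of Eif2ak1. It had the highest CPM of the 15, not corrected for gene length, at 64.0 CPM with dioscin and 70.6 CPM in TAC. Its ratio was 0.906 (0.834 to 0.984). Per kilobase of exonic length, Eif2b5 stood above Dele1 in both libraries.

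Of 26 other ATF4 and stress response targets listed outside the set, 23 reached 1 CPM, with a median log2 ratio of -0.34. Of these 23, 5 were called higher and 2 lower, where 10.5% of all genes were called higher and 8.77% lower. Ddit4, an inhibitor of the growth kinase mTORC1, had 157 CPM in the dioscin library and 18.9 CPM in the TAC library, a ratio of 8.33 (7.43 to 9.38). Eif4ebp1, which holds back cap-dependent translation, had 64.4 CPM with dioscin and 21.4 CPM in TAC, a ratio of 3.01 (2.68 to 3.40). Ddit3, the partner factor CHOP, was 2.28-fold lower in the dioscin library, and its overlap with Mars covers 1.99% of the exonic length of Mars. Gdf15, a secreted stress hormone, had 11 counts in the dioscin library and 43 in TAC, a ratio of 0.267 (0.120 to 0.509). Of those within 2-fold and named after their values were seen, Atf3, a stress-induced factor of the same family, had a ratio of 0.545 (0.463 to 0.638), and Sesn2, a leucine sensor, 0.523 (0.360 to 0.745), neither past the 2-fold limit. Vldlr, a lipoprotein receptor, had the highest CPM, not corrected for gene length, at 259 CPM with dioscin and 211 CPM in TAC. Its ratio was 1.22 (1.17 to 1.28). Per kilobase of exonic length, Herpud1 stood above Vldlr in both libraries. Cbs and Jdp2 were called higher at 2.62 and 2.14, and Herpud1 at 2.87. Fgf21, Slc7a11 and Pycr1 stayed under 1 CPM in both libraries.

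Levels between genes were compared per kilobase of exonic length, the union of all annotated exons, which lowers the value of genes with many long minor transcripts such as Eprs. Atf4 was the highest of the 32 in both libraries, at 51.7 CPM per kilobase with dioscin and 47.7 in TAC, followed by Slc38a2 at 29.7 with dioscin and 32.3 in TAC and by Atf5 at 26.5 and 31.0 in the dioscin and TAC libraries. Mthfd1l was the lowest in both, at 0.303 with dioscin and 0.183 in TAC. Of the synthetases, Gars ranked first in the dioscin library at 22.6, against 16.9 in TAC. Wars ranked first of them in the TAC library, and stood at 12.7 with dioscin and 19.2 in TAC. Slc3a2 ranked 5 among the 32 in the dioscin library and 13 in the TAC library. The order of the genes was otherwise much the same, with a rank correlation (Spearman) of 0.95 between the libraries over the 32 genes, which are not replicates and share each library's depth.

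**Figure D4:**
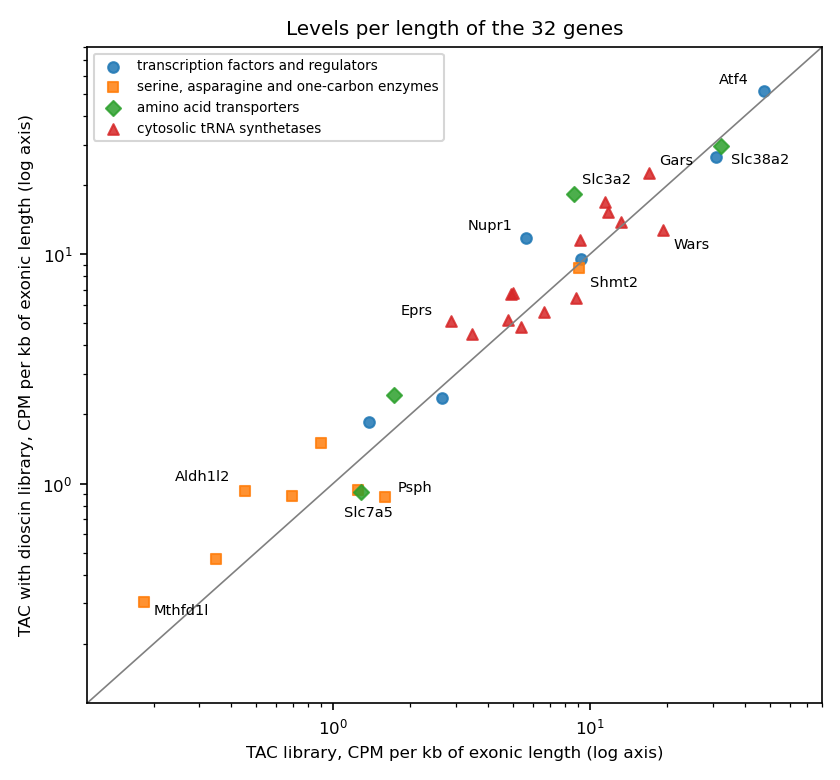
CPM per kilobase of exonic length (both axes log) in the library of TAC with dioscin (vertical) and the TAC library (horizontal), 1 point a gene with a marker for its role. Points above the diagonal are higher with dioscin, with Atf4 at the top right at 51.7 and 47.7 CPM per kilobase and Mthfd1l at the bottom left at 0.303 and 0.183.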

How the data were processed

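Heart RNA (Trizol, 1 ug a library) was sequenced from Illumina TruSeq libraries, which do not mark strand, per the labels' protocols. The authors deposited raw gene counts, made with HISAT2 2.1.0 and HTSeq on mm10 per the submitters' processing notes. For HTSeq the version and strand setting, and the annotation release, are not given in sources used here. Reads on the 5 lines that name no gene, 71.5% of the summed lines in the dioscin library and 73.8% in the TAC library, stayed out of library sizes. Of 55401 identifiers, 55141 matched GENCODE M21 (GRCm38) without their version. Where Ddit3 names 2 identifiers, the one with counts was used. Scaling used TMM in edgeR 4.0.16 (R 4.3.3), and size factors of DESeq2 1.42.0 as an alternative. Intervals came from SciPy 1.17.1. Alternatives were 3 other scalings, filters of 5 CPM or none, and a 1.5-fold limit. The naming rule took all 32 genes. Of each other list it allowed the members past the size rule, otherwise up to 4 by the interval bound farthest from 1. It also allowed the most abundant member, taken by CPM. Other list genes were named after their values were seen. Whole windows were those of Asns and of called genes with a match. The genes and lists were chosen with earlier results of these data known.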

Additional observations from a re-analysis of the deposited data

How the results depend on the processing

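The size rule called Slc3a2, Nupr1 and Aldh1l2 higher also with DESeq2 size factors, with TMM factors computed without mitochondrial genes, with a filter of 5 CPM and with no filter, and it called no gene lower under these. Scaled by total counts, only 1 gene was called higher, Slc3a2, with Nupr1 and Aldh1l2 just under 2-fold; that scaling moves the 32 log2 ratios by -0.08, the median of all genes to -0.07 and that of the 6 regulators to -0.0020, takes Slc38a2 to -0.20, and puts Cebpg and Mars below a ratio of 1. With a limit of 1.5-fold, 5 genes were called higher (Eprs and Mthfd2 besides) and 2 lower (Psph and Wars). The filter of 5 CPM took the median log2 ratio of the transporters to 0.49, since it leaves out Slc7a5. The medians of the other role groups and of all 32 genes stayed between the medians of their genes' lower and upper interval bounds. So did that of the transporters under the other settings. For the regulators these bounds run from -0.14 to 0.24, which is not an interval of the median itself. The change of sign of the regulators' median comes with the shift that scaling by total counts gives all 32 ratios. Over all genes, 1655 were higher and 1377 lower with TMM, 1452 and 1634 with total counts, 1045 and 695 with the filter of 5 CPM, and 3187 and 2815 with the limit of 1.5-fold. No paired analysis was possible because each group has 1 library, which also leaves no replicate to leave out. Depth limits the 6 genes under 5 CPM in both libraries, whose counting intervals all include 1.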

Other observations

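A comparison chosen after the values were seen set each cytosolic synthetase of the 32 genes beside the mitochondrial enzyme for the same amino acid. Of 12 such pairs, 9 had the higher dioscin over TAC ratio in the cytosolic enzyme, and in 7 of these the counting intervals lay apart. The pair for leucine was farthest apart, with 1.37 for Lars and 0.529 for Lars2, followed by the pair for alanine, with 1.29 for Aars and 0.610 for Aars2. In 3 pairs the mitochondrial ratio was the higher, and in 1 of them, for tyrosine, the intervals lay apart, at 0.892 for Yars and 1.52 for Yars2. Hars and Hars2 overlap on opposite strands over 7.97% of the exonic length of Hars, and had ratios of 1.25 and 0.697.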
